A study of Mus musculus with 6 samples.

Results

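The Hox cluster genes were followed in the retina of 6 mice at postnatal day 4, and 37 of the 22626 probe sets that are not controls carried a gene symbol made of Hox, a cluster letter from a to d and a number. These probe sets stand for 31 of the 39 mouse Hox genes that RefSeq lists: 12 probe sets of 9 genes in the HoxA cluster, 10 of 9 in HoxB, 8 of 6 in HoxC and 7 of 7 in HoxD. The samples were whole retinas dissected from 3 wildtype and 3 Nhlh2 knockout mice of a mixed C57/129 background, each hybridised to its own Affymetrix Mouse 430A 2.0 array, where the probe set, a group of short probes against 1 transcript, is the unit of measurement. Nhlh2 encodes a neuronal basic helix-loop-helix transcription factor. By the series design each wildtype mouse has a knockout littermate with the same replicate number, and the allele and sex are not given in the sources used here. No probe set was paired with the symbol Nhlh2 alone, so the arrays could not be used to check the knockout label.

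Hox genes encode homeodomain transcription factors that lie side by side in 4 clusters, and the order of the genes along a cluster follows the order in which they are used along the body axis. Paralog groups 1 to 3 lie at the anterior end of that order, groups 4 to 8 in its centre and groups 9 to 13 at the posterior end. They pattern the hindbrain, spinal cord, vertebrae, limbs and gut. The eye forms from the forebrain, ahead of the anterior limit of Hox expression, and its development is directed by homeodomain factors outside the clusters, such as Pax6, Rax, Six3, Otx2 and Crx. The comparison therefore asks how the Hox probe sets rank on the array against other homeobox genes, and whether they rank differently in the knockout.

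Each array gives 1 linear MAS 5.0 signal per probe set, and the arrays were not scaled to each other. The median signal was 76.1, 95.5 and 56.9 in wildtype replicates 1, 2 and 3, and 68.4, 9.0 and 51.3 in knockout replicates 1, 2 and 3. Knockout replicate 2 stood apart from the others: the ratio of the 3′ to the 5′ control probe set of Actb was 274 in it and 1.38 to 1.56 in the other 5, and its Spearman correlation with them over all probe sets was 0.642 to 0.669, against 0.947 to 0.975 among the 5. Results in the knockout are therefore given with and without it. A level is described here by its percentile, the rank of the signal among all 22626 probe sets of the same array, with 0 lowest and 100 highest. Probe sets differ in how well they bind, so a percentile orders transcript amounts only approximately. All 11 retinal marker genes measured, Crx, Nrl and Pax6 among them, were above the array median in each of the 6 arrays. The 7 genes measured of the blood list and the 7 of the skeletal muscle list were below it in all arrays but knockout replicate 2, where 1 of each list passed it. Lens genes were high in wildtype replicate 1 alone, where their summed signal was 103 times the array median, against 1.14 to 5.51 times in the other 5 arrays. Of 9 fibroblast and periocular mesenchyme genes, 2 passed the median in wildtype replicate 1, 2 in knockout replicate 2 and 0 in the other arrays. Of 6 genes of pigment epithelium and melanocytes, 4 were above the median in each array, with a summed signal 18.9 to 31.7 times the array median. Of 7 endothelial genes, each taken at its highest probe set, only Kdr and Cldn5 were above it in each array, and the rest were not. Their summed signal was 13 to 20.3 times the array median, and in wildtype replicate 1 Kdr alone gave 965 of 1249. The part of these other cells in the Hox signals was not tested.

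In the wildtype retina all Hox probe sets lay in the lower part of the array. None of the 37 had a signal above the array median in any of the 3 wildtype arrays, whereas 45.5% of all probe sets were above it in all 3. In 28 of the 37 (75.7%) the signal was below the 25th percentile in all 3 arrays, against 17.7% of all probe sets. The median percentile of the Hox probe sets was 14.5, 10.9 and 12.6 in replicates 1, 2 and 3, a mean of 12.7 ± 1.79 (SD, n = 3 mice). Their median signal was 6.2, 4.6 and 3.3, and the signal of the highest was 31.9, 53.2 and 36.6. In relation to the array median, the highest Hox signal reached 0.419, 0.557 and 0.643 of it. The signal was less than 20 in 31, 33 and 35 of the 37 probe sets. In these whole retinas a lower signal from fewer expressing cells cannot be told apart from less RNA in each cell.

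**Figure D1:**
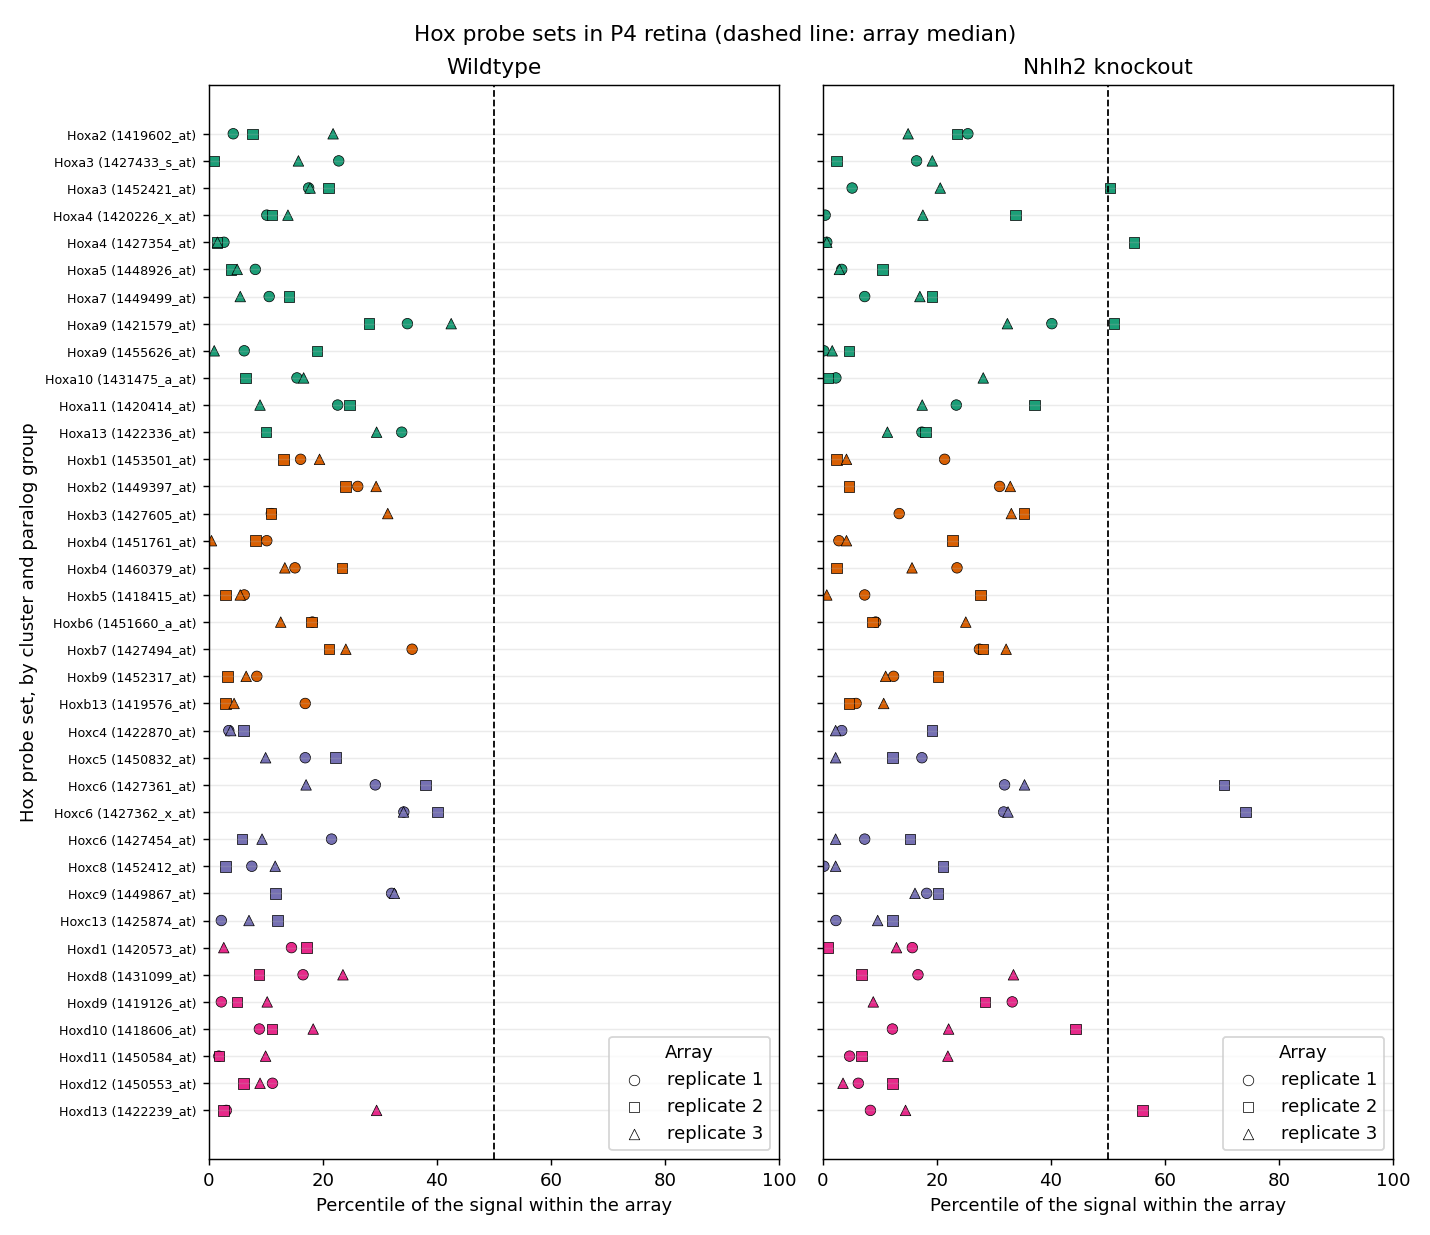
Within-array percentile (x axis, 0 to 100) of each of the 37 Hox probe sets (y axis, ordered along each cluster) in wildtype (left) and knockout (right), with 1 point per array, a symbol per replicate and a colour per cluster. The dashed line is the array median, and 6 points lie to the right of it, all from knockout replicate 2.

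The highest Hox probe set was 1 of the 3 for Hoxc6, a central gene that patterns the thorax. Its signal was 29.2, 53.2 and 21.5 in the wildtype arrays, a mean percentile of 36.2. The suffix of this probe set (_x_at) marks probes that may bind other transcripts as well. The second Hoxc6 probe set had 21.7, 46.5 and 5.9, and both were highest in replicate 2. The third had 13.1, 2.2 and 2.1 and a mean percentile of 12.2, so the gene's probe sets spanned 23.9 percentile points.

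Hoxa9, a posterior gene that also acts in blood progenitors, had the next highest probe set, with 30.4, 25.2 and 36.6 and a mean percentile of 35.1. Its other probe set had 2.0, 12.8 and 0.4 and a mean percentile of 8.73. These 2 probe sets differed by 26.4 points, the widest gap within a Hox gene, and the level of Hoxa9 is uncertain for that reason. The probe sets of Hoxa3, Hoxa4 and Hoxb4, 2 each, differed by 5.61 to 11 points. The first probe sets of Hoxc6 and Hoxa9 were the only 2 of the 37 above the 25th percentile in all 3 wildtype arrays.

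Below them followed Hoxb7, with 31.9, 15.1 and 11.1, and Hoxb2, a gene of the hindbrain, with 18.0, 19.1 and 15.9. Hoxb2 varied little between mice, while the next in order did not: Hoxc9 had 25.6, 5.1 and 19.5. Hoxa13, which patterns the hand and foot plate and the genital tubercle, had 28.5, 4.0 and 16. Hoxc9 and Hoxa13 thus passed the 25th percentile in replicates 1 and 3 and lay far below it in replicate 2.

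The lowest 5 probe sets were those of Hoxa4, Hoxc4, Hoxd11, Hoxb5 and Hoxa5. The Hoxa4 probe set had signals of 1.1, 0.9 and 0.5, which is a mean percentile of 1.90. Hoxc4 had 1.3, 2.3 and 0.9, and Hoxd11, which shapes the forearm and kidney, had 0.9, 1.0 and 2.3. All of these were among the dimmest probe sets of the array. Hoxb5 had 2.0, 1.3 and 1.2, and Hoxa5, a gene of the lung and neck, had 2.6, 1.6 and 1.1.

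The order within the Hox genes was weakly kept from mouse to mouse. Over the 37 Hox probe sets, Spearman's rho between wildtype arrays was 0.584, 0.523 and 0.336, against 0.851, 0.832 and 0.807 over the other homeobox probe sets and 0.970, 0.949 and 0.955 over all; probe sets on an array share its labelling and background, so these values are a description. A Hox probe set ranged over 9.84 percentile points across the 3 wildtype arrays (median over the 37; largest 26.9). The SD between mice was 5.11 (median over the 37), and that of the mean percentile between Hox probe sets was 8.63. Of the 36 pairs of neighbours in the order of levels, 35 had overlapping percentiles in the 3 wildtype arrays. The exception was the lowest pair, Hoxc4 above the dimmer Hoxa4 probe set. Neighbours were defined by the mean of these same percentiles, so overlap was likely beforehand and the count is only a description.

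The 4 clusters lay close together. The median percentile, averaged over the 3 wildtype arrays, was 12.8 for HoxA, 13.5 for HoxB, 14 for HoxC and 8.42 for HoxD. By position it was 16.2 for the 7 anterior probe sets, 11.2 for the 16 central and 9.46 for the 14 posterior. In none of these groups did a probe set pass the array median in a wildtype array. Probe sets left out by the rule were as low: the pair shared by Hoxd3 and Hoxd4 lay at or below the 14.8 percentile in wildtype, the set shared by Hoxb7 and Hoxb8 between 17.2 and 22.5, and that of the antisense transcript Hoxa11os between 2.64 and 15.2.

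Other homeobox genes ranked higher as a group. The list held 183 genes outside the clusters, of which 138 had a probe set, 194 probe sets in all. Their median percentile was 29.0, 26.2 and 28.7 in the wildtype arrays, above that of the Hox probe sets in each array. The difference was 14.5, 15.3 and 16.1 percentile points, a mean of 15.3 ± 0.816 (SD, n = 3). Above the array median in all 3 arrays were 49 of the 194 (25.3%), and 72 (37.1%) had a mean percentile higher than the highest Hox probe set. The list includes the retinal factors and the Pbx, Meis and Pknox partners of Hox proteins described below. Without the retinal factors it still held 32 of 152 (21.1%) above the median in all 3 arrays. Without those partners as well, it held 23 of 140 (16.4%). The median percentile of these 140, averaged over the wildtype arrays, was 24.4, against 12.7 for Hox. These lists are sets of genes, not samples, and no test was made between them.

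**Figure D2:**
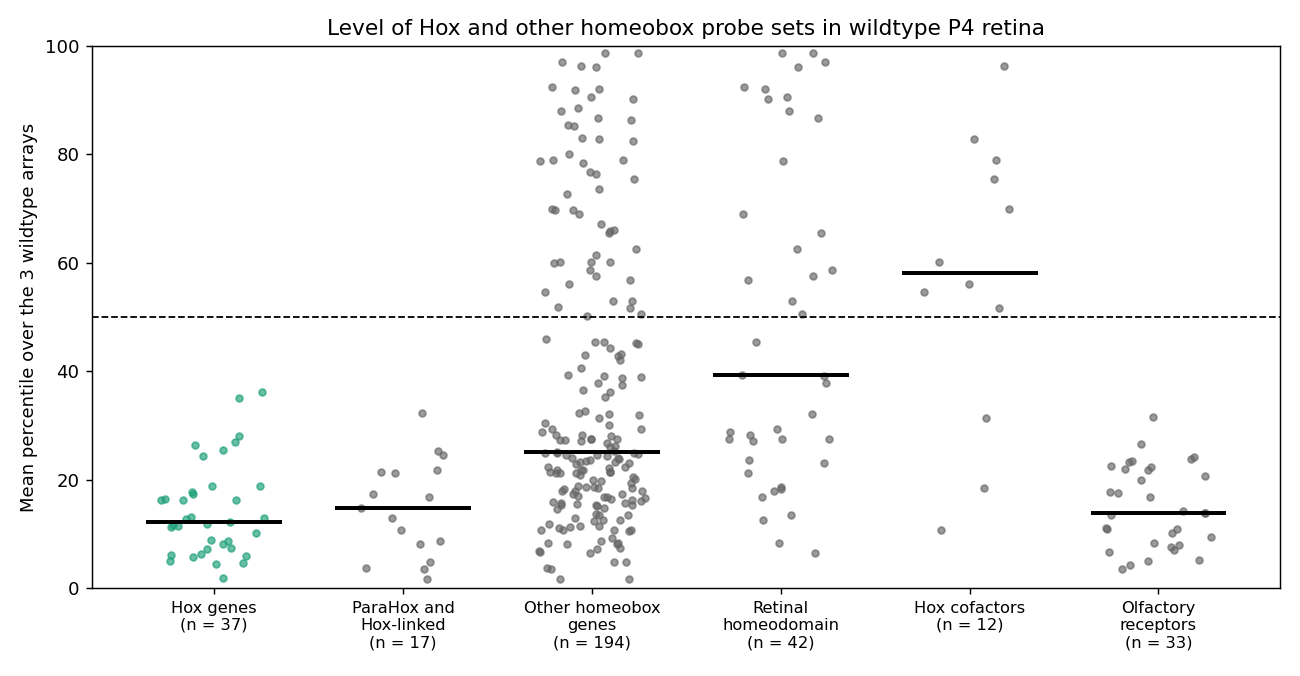
Mean percentile over the 3 wildtype arrays (0 to 100) of each probe set in the Hox genes and in the lists compared with them, 1 point per probe set, with the median of each list as a bar. The Hox points end at 36.2, while 72 of 194 other homeobox points lie higher.

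The highest of the other homeobox genes were factors of the eye field and photoreceptors. Otx2, which specifies photoreceptors and bipolar cells, had a signal of 3377, 5150 and 2650 in the wildtype arrays. Crx, a photoreceptor factor that acts after Otx2, had 3188, 3883 and 2962, and Pax6, a regulator of retinal progenitors and amacrine cells, had 1863, 2254 and 1446. Of the 42 probe sets for retinal homeodomain factors, 17 (40.5%) were above the median in all 3 wildtype arrays, against 45.5% of all probe sets. The median percentile of the 42 was 35.7, 38.5 and 46.2, so the list as a whole did not rank high. With each gene taken at its highest probe set, the lowest of this list was Vax1, a gene of the optic stalk, with 3.9, 2.5 and 10.

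The partners of Hox proteins were measured at much higher ranks than the Hox genes. Pbx, Meis and Pknox proteins bind DNA together with Hox proteins and also act without them. Of their 12 probe sets, 9 (75%) were above the array median in each wildtype array, and the median percentile was 59.7, 59.9 and 55.0. Meis2, a factor of retinal progenitors and of amacrine cells, had 1447, 1961 and 1474, Meis1 367, 506 and 381, and Pbx2 290.5, 404 and 306. With each gene taken at its highest probe set, the lowest was Pbx4, a gene of the testis, with 6.2, 22.0 and 4.6. Genes that control Hox transcription, among them the Polycomb and Trithorax proteins and the retinoic acid receptors, were spread over the array. Of their 55 probe sets, 28 (50.9%) were above the median in all 3 wildtype arrays, against 45.5% of all probe sets. Ezh2, the histone methyltransferase of Polycomb complex PRC2, had 1115, 1227 and 840.5, and Kdm5b, a histone demethylase, 912, 1204 and 1178. Egr2, which drives Hox genes in the hindbrain, was the lowest of them by the same choice of probe set, with 2.9, 2.7 and 5.0.

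Homeobox genes related to the Hox genes shared their low ranks. The ParaHox genes and those linked to the clusters, such as Cdx, Evx, Gbx and En genes, had 17 probe sets, of which 0 were above the median in a wildtype array and 12 were below the 25th percentile in all 3. Their median percentile was 16.9, 14.3 and 14.1. Evx2, which lies next to the HoxD cluster, was the highest with 22.1, 33.0 and 22.7. En1, a gene of the midbrain and hindbrain border, was the lowest with 0.5, 1.7 and 0.2. A second list of genes, the olfactory receptors, was added after its values were seen, as genes of another sensory tissue. Of its 33 probe sets 0 were above the median in a wildtype array and 22 were below the 25th percentile in all 3, with a median percentile of 12.6, 16.2 and 14.5. The Hox and olfactory receptor medians differed by less in each array than the Hox and other homeobox medians. Forkhead factors were chosen in the same way, as another family of developmental transcription factors. Of their 55 probe sets, 12 (21.8%) were above the median in all 3 arrays.

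The sequence before the start site was set beside the level, because CpG-rich promoters are common in widely expressed genes. The windows were the 250 bases before the start in RefSeq's GRCm38.p6 annotation, with both strands sharing each CG, and a window of at least 16 CG was called CpG-rich, as 25.4% of the 32851 windows in the table were. A window was given for 18 of the 31 Hox genes, with a median of 13.5 CG, and at least 1 window was CpG-rich in 8 of 18 genes (44.4%). Counted in the same way per gene, the share was 47.2% over all genes with a probe set and a window and 52% over the other homeobox genes, so that of the Hox genes was near the background. Shown are the windows of the Hox genes with the highest level, the lowest level and the most CG among those 18, each gene taken at its highest probe set, and that of Otx2 for comparison, read on the strand of the gene with each CG in capitals. Hoxa9 (chr6:52227371-52227620, minus strand) held 3 CG, Hoxc4 (chr15:103034145-103034394, plus strand) 8, Hoxa13 (chr6:52260881-52261130, minus strand) 35 and Otx2 (chr14:48665110-48665359, minus strand) 14.
Hoxa9: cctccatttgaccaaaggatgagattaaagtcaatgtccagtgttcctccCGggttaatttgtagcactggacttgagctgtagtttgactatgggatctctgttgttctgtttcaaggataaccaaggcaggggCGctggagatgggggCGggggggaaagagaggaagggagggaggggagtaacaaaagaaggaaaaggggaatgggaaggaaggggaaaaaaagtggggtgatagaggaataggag
Hoxc4: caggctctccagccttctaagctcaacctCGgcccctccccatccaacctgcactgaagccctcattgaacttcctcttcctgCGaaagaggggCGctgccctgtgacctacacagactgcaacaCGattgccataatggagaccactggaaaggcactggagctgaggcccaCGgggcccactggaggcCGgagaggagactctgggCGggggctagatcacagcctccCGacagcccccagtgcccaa
Hoxa13: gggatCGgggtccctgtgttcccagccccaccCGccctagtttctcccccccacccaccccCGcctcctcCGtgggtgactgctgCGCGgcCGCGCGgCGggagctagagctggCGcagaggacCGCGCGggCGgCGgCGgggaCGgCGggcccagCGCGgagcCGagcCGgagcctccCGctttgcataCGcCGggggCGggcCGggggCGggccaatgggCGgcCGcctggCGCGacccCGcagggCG
Otx2: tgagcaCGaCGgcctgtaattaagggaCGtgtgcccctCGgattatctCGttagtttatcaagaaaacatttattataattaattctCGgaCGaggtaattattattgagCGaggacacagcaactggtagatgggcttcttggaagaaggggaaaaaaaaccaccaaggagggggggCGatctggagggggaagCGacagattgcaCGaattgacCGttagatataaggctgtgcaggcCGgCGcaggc

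At least as many CG as in the window of Hoxa13 were found in 2.97% of all windows, yet its mean percentile was 24.4, and that of Hoxd13, with 31 CG, was 11.7. Of the 9 Hox probe sets whose gene has a CpG-rich window, 0 were above the array median in all 3 wildtype arrays. The same count was 24 of 74 (32.4%) for other homeobox genes and 59.2% over the 8477 probe sets with 1 gene symbol and a CpG-rich window. Where the window was not CpG-rich it was 0 of 12 for Hox, 18.1% for other homeobox genes and 35.6% over all. The Hox count could only be 0 in either class, since 0 of the 37 Hox probe sets passed the median in any wildtype array. The median of their mean percentile was 12.8 where the window was CpG-rich and 10.7 where it was not. Over all probe sets with 1 gene symbol and a window it was 61.8 and 38.0. A match of letters in a window is a description and does not show which start site the retina uses.

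**Figure D3:**
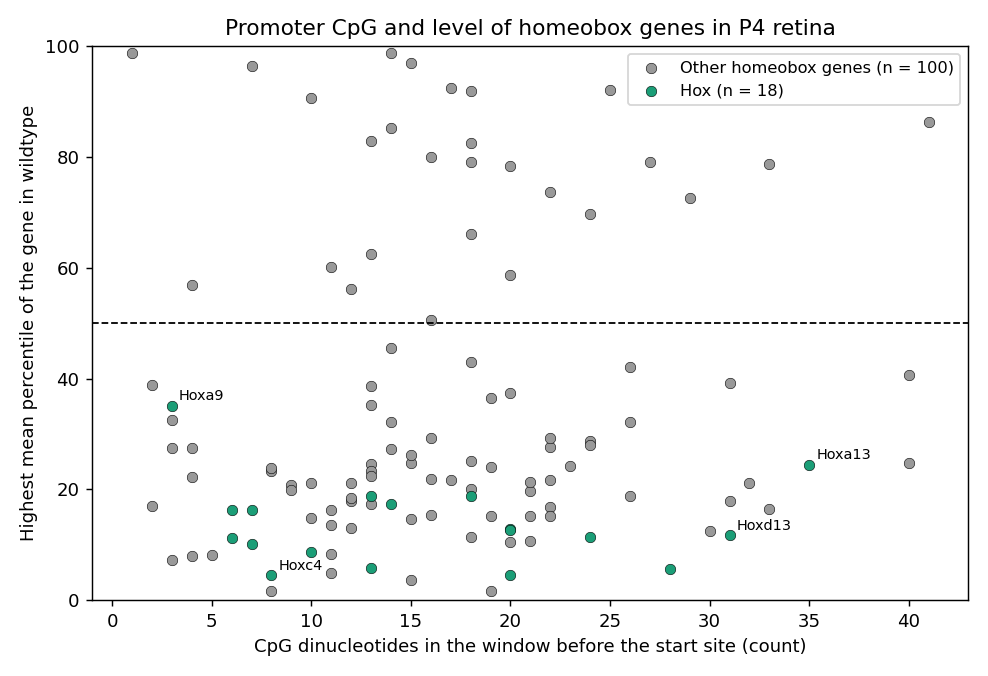
Number of CG in the window before the start site (x axis) against the highest mean percentile of the gene's probe sets in wildtype (y axis, 0 to 100), 1 point per gene, for 18 Hox and 100 other homeobox genes. The dashed line is the 50th percentile, and the Hox points lie below it at all CG counts from 3 to 35.

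In the knockout retina the Hox probe sets ranked as low in replicates 1 and 3. None was above the array median in either, against 46.7% of all probe sets in both, and 26 of 37 (70.3%) were below the 25th percentile in both, against 19.5% of all. Knockout replicate 2 differed, with 6 of 37 above its median. Above the median in all 3 knockout arrays were 0 Hox probe sets, against 35.6% of all. The median percentile was 12.3, 19.2 and 15 in knockout replicates 1, 2 and 3, a mean of 15.5 ± 3.49 (SD, n = 3) with replicate 2 and of 13.6 without it. The wildtype mean of 12.7 lay within that spread. The other homeobox genes had 27.0, 37.7 and 29.8, which left a difference of 16 ± 2.14 (SD, n = 3) from the Hox probe sets, close to the wildtype 15.3.

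The 6 probe sets that passed the median of knockout replicate 2 did so at low signals, since that median was 9.0. They were 2 of Hoxc6 with 21.5 and 18.3, Hoxd13 with 11, and 1 each of Hoxa4, Hoxa9 and Hoxa3 with 10.5, 9.3 and 9.1. The 9.3 of Hoxa9 was its lowest signal of the 6 arrays. Those of Hoxc6 and Hoxa3 lay within the range of the same probe sets in the other 5 arrays, which was 18.4 to 53.2 and 5.9 to 46.5 for Hoxc6 and 1.5 to 15 for Hoxa3. The Hoxa4 probe set was an exception: it had 0.5 to 1.1 in the other 5 arrays. Hoxd13 had 1.2 to 4.2 in 4 arrays and 16 in wildtype replicate 3. These signals were not scaled, so a signal within the range of the other arrays does not mean an unchanged level. In relation to the array median, the first Hoxc6 probe set had 2.39 in knockout replicate 2 and 0.326 to 0.557 in the other 5 arrays. The Hoxa3 probe set with 9.1 had 1.01 in it and 0.0219 to 0.162 in the other 5. The part of the 3′ to 5′ imbalance of this array in the change of rank was not tested.

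**Figure D4:**
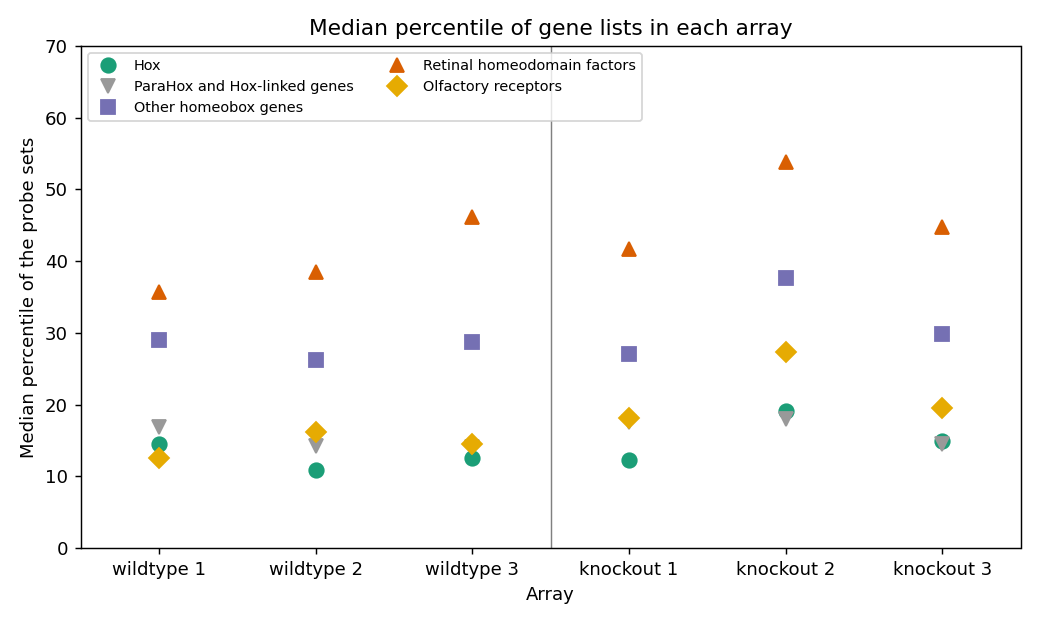
Median percentile (y axis) of the probe sets of each list in each of the 6 arrays (x axis), 1 symbol per list. The Hox points lie between 10.9 and 19.2, below those of the other homeobox genes at 26.2 to 37.7, and both are highest in knockout replicate 2.

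No Hox probe set differed between knockout and wildtype by the test over all probe sets. limma, on log2(signal + 1) after quantile normalization of all 6 arrays, called 0 of 22626 probe sets at an adjusted p under 0.05 (0% of all), and 0 of 37 Hox. At an unadjusted p under 0.05 it found 1 Hox probe set higher in the knockout, where 1.11% of all were, and 0 lower, where 0.42% of all were. A fit without knockout replicate 2 also called 0 probe sets, with 0 Hox at an unadjusted p under 0.05. Of the Hox probe sets 23 had a higher and 14 a lower mean in the knockout, with a median log2 difference of 0.23 against 0.03 over all probe sets. Without knockout replicate 2 the counts were 18 and 19, and the median was -0.01.

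The probe set with the smallest p was that of Hoxd9, a posterior gene of limb and spinal cord. Its signal was 1.0, 1.9 and 2.4 in wildtype and 24.5, 2.9 and 2.1 in knockout. It was thus high in knockout replicate 1 only as deposited, and after quantile normalization in replicate 2 as well. The log2 difference was 2.01 with an SE of 0.81, and limma gave an adjusted p of 0.807. Hoxb9 had 2.7, 1.4 and 1.4 in wildtype and 4.1, 1.5 and 2.7 in knockout, a log2 difference of 1.08 with an SE of 0.56. Its groups overlapped as deposited but not after normalization, and the share of all probe sets without overlap was not counted. Apart from the single high value of Hoxd9, no signal of either passed 4.1 in any array.

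The other 3 of the 5 with the smallest p among those higher in the knockout were Hoxa2, the second Hoxc6 probe set and Hoxd10. Their log2 differences were 1.23, 1.43 and 1.37, and Hoxa2 patterns the second pharyngeal arch. Hoxa2 had 1.5, 2.9 and 9.3 in wildtype and 15.2, 1.9 and 4.5 in knockout. Hoxd10, a gene of lumbar motor neurons, had 2.9, 4.7 and 6.8 in wildtype and 4.0, 7.3 and 9.5 in knockout. The groups overlapped for all 3 genes. Within littermate pairs 1, 2 and 3 the log2 differences after normalization were 0.43, 3.28 and 0.40 for Hoxd10. Those of Hoxb9 were 0.52, 2.17 and 0.55. The second Hoxc6 probe set had 0.23, 2.37 and 1.71, the first -0.20, 2.45 and -0.14 and the third -1.80, 1.24 and -0.87. Like Hoxd10, Hoxb9 and that second probe set, Hoxd11, Hoxb3 and Hoxa11 were higher in the knockout mouse of every pair after normalization. As deposited this held for Hoxd10, Hoxb9 and Hoxb3 only. In pair 2 the deposited wildtype and knockout signals were 46.5 and 18.3 for the second Hoxc6 probe set. They were 1.0 and 0.6 for Hoxd11 and 20.1 and 5.2 for Hoxa11. The share of all probe sets higher in the knockout mouse of every pair was not counted, and pair 2 holds knockout replicate 2. With the littermate pair as a block, limma gave Hoxd10, Hoxb9 and the second Hoxc6 probe set an adjusted p of 0.822. Without knockout replicate 2 the difference of Hoxc6 was 0.55 and that of Hoxd10 0.59.

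The 5 with the smallest p among those lower in the knockout were Hoxa9, Hoxb1, Hoxa13, Hoxc5 and Hoxc9, with log2 differences of -0.89, -0.89, -0.82, -0.71 and -0.59. Each kept its sign when any 1 array was left out but moved by over 1.5 times: Hoxa9 was -0.21 without wildtype replicate 2, Hoxb1 -1.60 without knockout replicate 1 and Hoxc5 -0.17 without knockout replicate 3. Hoxa13 ran from -0.34 without wildtype replicate 1 to -1.58 without replicate 2, and Hoxc9 from -0.21 without wildtype replicate 3 to -1.30 without replicate 2. The Hoxa9 probe set here was the dimmer of the pair, with 2.0, 12.8 and 0.4 in wildtype and 0.3, 0.5 and 0.7 in knockout. Its brighter probe set had a difference of 0.49, in the other direction. Hoxb1, which specifies a segment of the hindbrain, had 7.7, 6.4 and 7.6 in wildtype and 11.2, 0.4 and 1.1 in knockout, so knockout replicate 1 lay above all wildtype mice. Hoxa13 had 7.8, 1.3 and 2.8 in knockout, within the wildtype range in replicate 1. For all 10 the adjusted p in limma was 0.807 to 0.810.

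**Figure D5:**
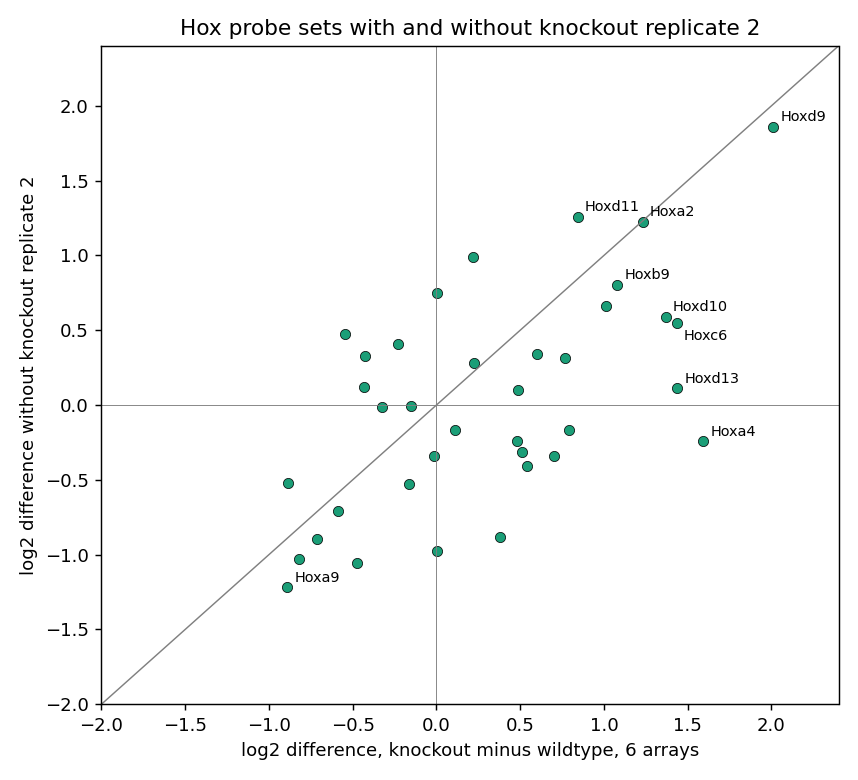
Log2 difference, knockout minus wildtype, of the 37 Hox probe sets with all 6 arrays (x axis) and without knockout replicate 2 (y axis), after quantile normalization; 1 point per probe set, with some of the largest differences named. Points off the diagonal moved when that array was left out, as the second Hoxc6 probe set did from 1.43 to 0.55.

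The lists around the Hox genes held no called probe set either. limma called 0 of 194 other homeobox probe sets at an adjusted p under 0.05. At an unadjusted p under 0.05 it found 5 higher, where 1.11% of all probe sets were, and 1 lower, where 0.42% were. The median log2 difference was 0.17, and 0.01 without knockout replicate 2. The 12 probe sets of Hox cofactors had a median of -0.61, and -0.05 without that array. The ParaHox and linked genes had a median of 0.61 and, without it, 0.03.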

How the data were processed

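The authors deposited 1 linear MAS 5.0 intensity per probe set and array; scaling and present calls are not given in the sources used here. The 64 control probe sets were left out. GEO's platform annotation gave a single gene symbol for 20380 probe sets and more than 1 for 691, which were not used; 0 Hox symbols differed from RefSeq. Ranks were taken within each array. Groups were compared in limma 3.58.1 (R 4.3.3) on log2(signal + 1), quantile normalized, with an intensity trend and Benjamini-Hochberg adjustment. No filter and no littermate block were used. Whether this comparison would call a change in probe sets as low as those of the Hox genes was not tested. With 3 arrays per group their number limits the precision. Members, lists and tests were chosen with earlier results of these data known. Named Hox probe sets were the 5 lowest and, as none passed the test, the 5 of each direction with the lowest p. Genes named from the homeobox, cofactor and regulator lists were the lowest and some or all of the 3 highest. Other Hox probe sets were named after their values were seen. Promoter windows came from a RefSeq table of GRCm38.p6. Thresholds, probe set choices, normalizations, filters, the block and leaving out each array were alternatives.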

Additional observations from a re-analysis of the deposited data

How the results depend on the processing

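The count of 0 Hox probe sets above the array median in all 3 arrays of a group stayed at 0 with plain probe sets and with 1 value per gene. At the 75th percentile and without each replicate it could only be 0. The reason is that 0 Hox probe sets passed the median in any wildtype array or in knockout replicates 1 and 3. At the 25th percentile it was 2 in wildtype and 4 in knockout. The wildtype difference from other homeobox genes was 18.9 with plain probe sets only, 14.4 with the highest probe set of each gene and 13.4 without the retinal factors, and the knockout difference was 12.5 without them. The wildtype Hox median percentile was 10.6 with the mean of the probe sets of each gene. With plain probe sets or 1 value per gene, percentiles and array medians were taken anew among the probe sets or genes kept. Without each replicate in turn, the wildtype median percentile was 11.8 to 13.6 and the difference 14.9 to 15.7; in knockout they were 13.6 to 17.1 and 14.8 to 16.6. The list of homeobox genes by RefSeq description was not run, since the tables used here hold no descriptions.

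limma called 0 probe sets without each replicate, on signals as deposited, with a constant of 16, after centring on the 75th percentile and without the intensity trend; an ordinary two-sample comparison called 1, and 0 Hox. Scaling moved the median log2 difference of all probe sets to -1.10 as deposited, with the Hox median at -0.48 and 10 of 37 higher, and to 0.25 after centring, with the Hox median at 0.87 and 33 of 37 higher, so no direction is given for the Hox genes as a group. Of the 10 named probe sets 1 changed sign, under centring. A filter on probe sets above the median in at least 3 of 6 arrays left 11610 and 0 Hox. With the littermate pair as a replicate block 0 probe sets and 0 Hox were called, as without pair 2. Deviations of same-numbered mice correlated at 0.098, -0.072 and 0.079, while wildtype 2 and knockout 1 had 0.162; the pairing comes from the series design. Most Hox signals lay near the floor of the array, where differences between mice are imprecise.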
